A study of Mus musculus with 22 samples.

Results

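Genes of the interferon response, of antigen presentation and of complement were measured in TgproNGF#3 and wild-type (WT) mice, with RNA from the hippocampus. The set held 32 genes of the 21172 that could be named on the array, and its members were all non-control probes whose RefSeq transcript belongs to 1 of these genes, 39 probes of 55681. Expression was read on Agilent one-color whole mouse genome arrays, 1 mouse per array, in 22 mice. The groups were 4 TgproNGF#3 and 4 WT males of 1 month, 4 and 4 males of 3 months, and 3 and 3 females of 12 months. TgproNGF#3 is a single founder line in which a furin-resistant pre-proNGF cDNA, followed by an IRES and EGFP, is driven in neurons by the mouse Thy1.2 promoter. Every mouse was of the mixed C57Bl/6xDBA/2 background and untreated, and the MHC haplotype of single mice is not given in the sources used here.

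Interferons are signalling proteins that cells release when they sense viral or damaged nucleic acid. Through their receptors they activate STAT proteins, which join with IRF proteins to switch on interferon-stimulated genes, among them the genes of antigen presentation. MHC class I displays peptides made inside any cell, MHC class II displays peptides taken up by microglia, macrophages and other presenting cells, and complement is a cascade of plasma and tissue proteins that tags material for removal. In the brain all 3 arms are low at rest, and complement proteins also take part in the removal of synapses by microglia.

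The promoters of several members hold letters that match the interferon-stimulated response element (ISRE), the site bound by STAT and IRF proteins. Their sequences are shown because 6 of the genes with a match gave an unadjusted p below 0.05 at 12 months. Of the 32 members, 24 had a promoter window in the RefSeq table of build GRCm38.p6, which reaches from 250 bases before to 50 after the start of transcription. The core, read as GAAA, any 2 bases and GAAA again and searched on both strands, was in the window of 9 members (B2m, Bst2, Gbp2, Gbp3, H2-T23, Ifit1, Ifit3, Isg15 and Stat2) and in 3.44% of all 32851 windows. The longer form, which is the core followed by CT, was in those of Bst2, Gbp2, Gbp3, Ifit1 and Ifit3 and in 0.271% of all windows. Below, stretches that end before the start site are given 5′ to 3′ on the strand of the gene, with the core in capitals. Ifit1 and Ifit3 hold it at more than 1 place, and Isg15 and Gbp3 hold overlapping copies.
Ifit1, chr19:34640769-34640888, plus strand: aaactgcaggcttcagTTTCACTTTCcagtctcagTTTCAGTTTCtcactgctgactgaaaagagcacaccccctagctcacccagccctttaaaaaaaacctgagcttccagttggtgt
Ifit3, chr19:34583343-34583462, plus strand: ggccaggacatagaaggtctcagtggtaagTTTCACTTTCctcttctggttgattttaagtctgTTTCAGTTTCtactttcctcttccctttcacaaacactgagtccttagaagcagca
Gbp2, chr3:142620543-142620662, plus strand: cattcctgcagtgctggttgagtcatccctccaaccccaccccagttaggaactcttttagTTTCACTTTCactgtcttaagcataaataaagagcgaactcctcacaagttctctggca
Gbp3, chr3:142559924-142560043, plus strand: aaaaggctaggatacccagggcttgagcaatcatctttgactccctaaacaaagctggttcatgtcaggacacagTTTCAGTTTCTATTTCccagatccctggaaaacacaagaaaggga
Isg15, chr4:156200819-156200938, minus strand: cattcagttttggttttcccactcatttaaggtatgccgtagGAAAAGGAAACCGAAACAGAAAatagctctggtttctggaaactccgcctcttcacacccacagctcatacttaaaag
H2-T23, chr17:36032736-36032855, minus strand: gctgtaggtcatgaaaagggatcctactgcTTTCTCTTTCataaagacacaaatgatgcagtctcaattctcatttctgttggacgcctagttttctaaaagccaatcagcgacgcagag

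Levels are given as the log2 intensity of a probe minus the 75th percentile of its array, so that a level of 0 lies at that percentile, and Log2 FC is the mean of TgproNGF#3 minus the mean of WT. For a gene with several probes the brightest was used. Values came from spots well above background alone, and a gene was tested where each group had at least 2 values, which held for 32 members at 1 month, 32 at 3 months and 30 at 12 months. Up- and down-regulated are used of genes whose means differed by more than 1 log2 unit at an unadjusted limma p below 0.05, and adjusted p-values are Benjamini-Hochberg values over all probes tested. No spot was saturated, between 57.6% and 80.27% of the spots on an array were well above background, and the number of arrays limits the precision. Each age was hybridized on a slide of its own, so that age, slide and, at 12 months, sex cannot be told apart. In these whole-tissue samples fewer cells of a type and less RNA per cell cannot be told apart either.

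At 1 month no member passed a threshold between TgproNGF#3 and WT. In limma 0 of 32 members were up- or down-regulated, 0 had an unadjusted p below 0.05 and 0 an adjusted p below 0.05. Over all 17199 genes tested 0.174% were up-regulated and 0.169% down-regulated, and 2.11% and 0.744% had an unadjusted p below 0.05 in the higher and the lower direction. The median Log2 FC of the members was 0.06, beside 0.07 over all genes. With the replicate number as a block, H2-Aa, the alpha chain of an MHC class II molecule, was down-regulated with a Log2 FC of -1.11 ± 0.267 (SE; adjusted p = 0.598 in limma). That probe was not well above background in replicate 3 of either genotype, and without the block the 95% confidence interval of its Log2 FC ran from -2.55 to 0.32.

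At 3 months 9 members were higher and 2 lower in TgproNGF#3 at an unadjusted p below 0.05. Cd74 and H2-Ab1 of the class II pathway were up-regulated, and no member was down-regulated. Over all 15737 genes 0.775% were up-regulated and 3.36% down-regulated, while 9.59% had an unadjusted p below 0.05 in the higher and 15.3% in the lower direction. The members ran 9 to 2 upward where the array as a whole ran downward. With the percentile taken over all spots the split was 14 to 1, beside 18.2% of all genes in the higher and 10.3% in the lower direction. Without TgproNGF#3 replicate 1 it was 7 to 8, beside 6.78% and 17.4%. The adjusted p was below 0.05 for 3 members, Cd74, Ifit2 and Ifit3, all higher, beside 2.05% of all genes in that direction and 4.49% in the lower one. This count was 0 without TgproNGF#3 replicate 1 or 2 or WT replicate 1 or 4, while 3.91%, 4.37%, 2.58% and 1.88% of all genes still passed. The count was 1 with the replicate block, 9 with the percentile over all spots and 10 with the log2 values of the authors. Beside these, 1.47%, 10.4% and 11% of all genes passed in either direction. Where single genes are said below not to overlap at 3 months, 7.59% of all genes did so with TgproNGF#3 above WT and 11.7% with TgproNGF#3 below. The median Log2 FC of the 32 members was 0.21, beside -0.05 over all genes, and it lay between 0.09 and 0.28 when single mice were left out. TgproNGF#3 replicate 1 was the highest of the 4 TgproNGF#3 mice in 22 of the 30 members measured in all of them, and replicate 4 was the lowest in 18. Without replicate 1 only Cd74 was up-regulated, with a Log2 FC of 1.29.

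At 12 months the members lay lower in TgproNGF#3. Of the 30 tested, 28 had a Log2 FC below 0, 15 had an unadjusted p below 0.05 and all 15 were lower. H2-Ab1, Cd74 and H2-T23 were down-regulated and no member was up-regulated. Over all 15692 genes 0.854% were down-regulated and 0.331% up-regulated, and 4.21% and 3.89% had an unadjusted p below 0.05 in the lower and the higher direction. No adjusted p was below 0.05, for a member or for any other gene, and that of the 15 members was 0.549 in limma. The median Log2 FC was -0.60, beside 0.06 over all genes. In 11 members all detected TgproNGF#3 mice lay below all detected WT mice, 10 of them with all 6 mice detected, a pattern that 5.74% of all genes showed in that direction.

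**Figure D1:**
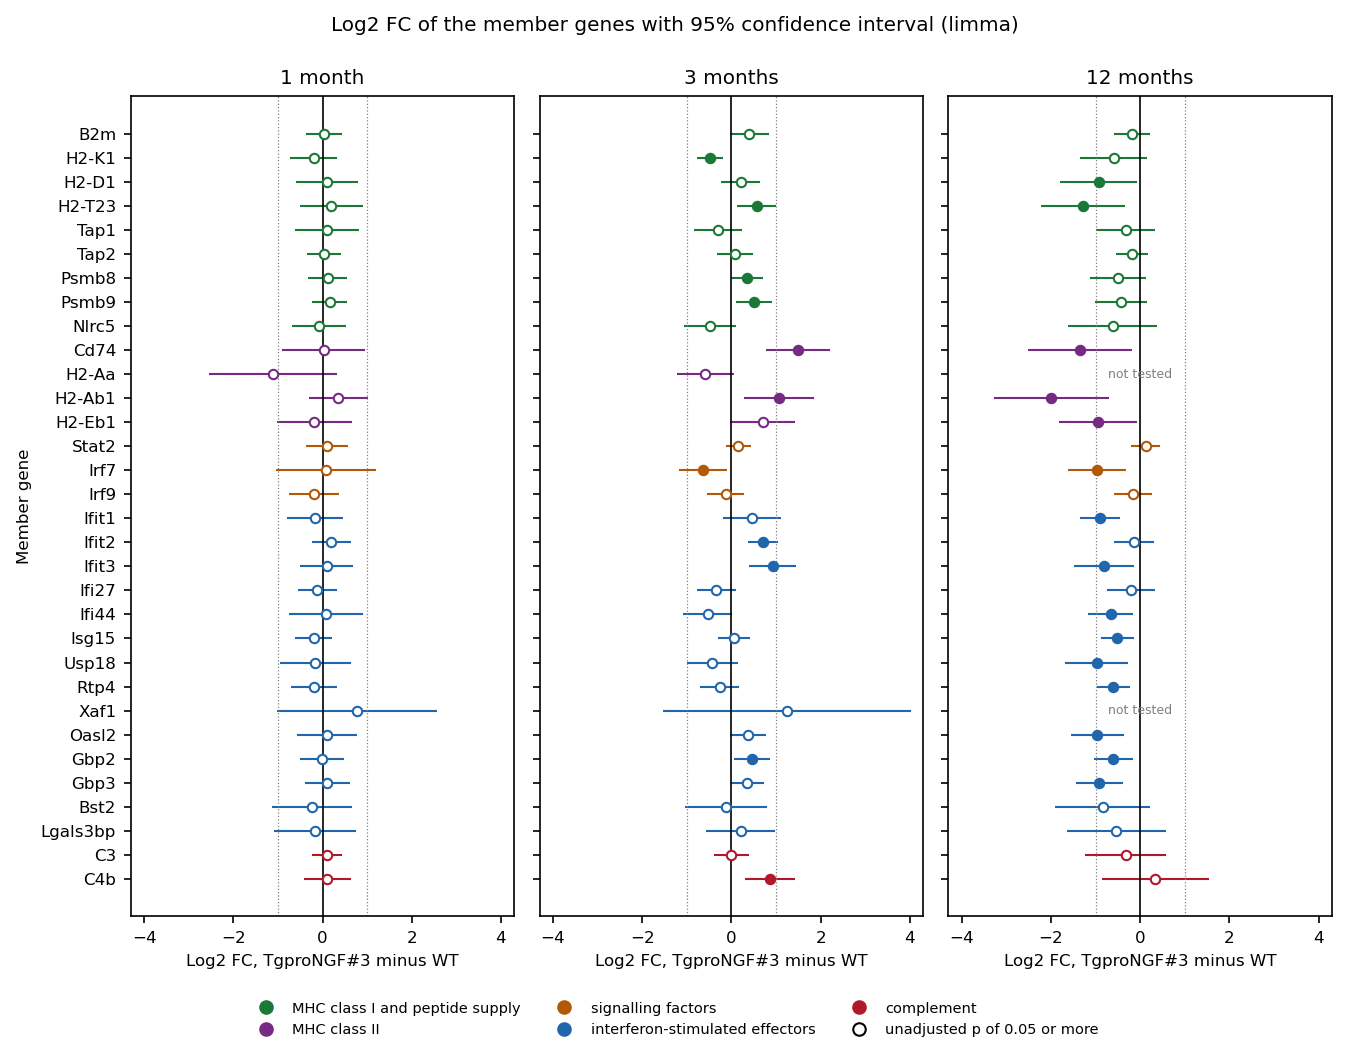
Log2 FC of the 32 members at each age on the horizontal axis (TgproNGF#3 minus WT, log2), with bars for the 95% confidence interval from limma and colours for the role. Filled points have an unadjusted p below 0.05; there are 0 at 1 month, 11 at 3 months, of which 9 lie above 0, and 15 at 12 months, all below 0.

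The values of 12 months moved with the place of the arrays on the slide. The 3 TgproNGF#3 arrays shared an array row with WT replicate 3, and WT replicates 1 and 2 lay in the other row. WT replicate 3 was the lowest of the 3 WT mice in 24 of the 29 members measured in all 6 mice, and in 19 of them it was no higher than the highest TgproNGF#3 mouse. The median over the 29 members was -0.75 for the mean of TgproNGF#3 minus the mean of WT replicates 1 and 2, and -0.17 for the mean of TgproNGF#3 minus WT replicate 3. With the array row as a block, where TgproNGF#3 is set against that 1 WT mouse, the median was -0.24, 20 of 30 members lay below 0, none was down-regulated, and Ifit1 and Ifi44 kept an unadjusted p below 0.05 with Log2 FC of -0.74 and -0.96, beside 1.08% of all genes in the lower direction. Without WT replicate 3, 11 members were down-regulated, 20 had an unadjusted p below 0.05 and the median was -0.78. Over all genes the shares rose as well, to 1.85% down-regulated and 7.17% with an unadjusted p below 0.05 in the lower direction. Whether the row or the mouse sets this difference was not tested.

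**Figure D2:**
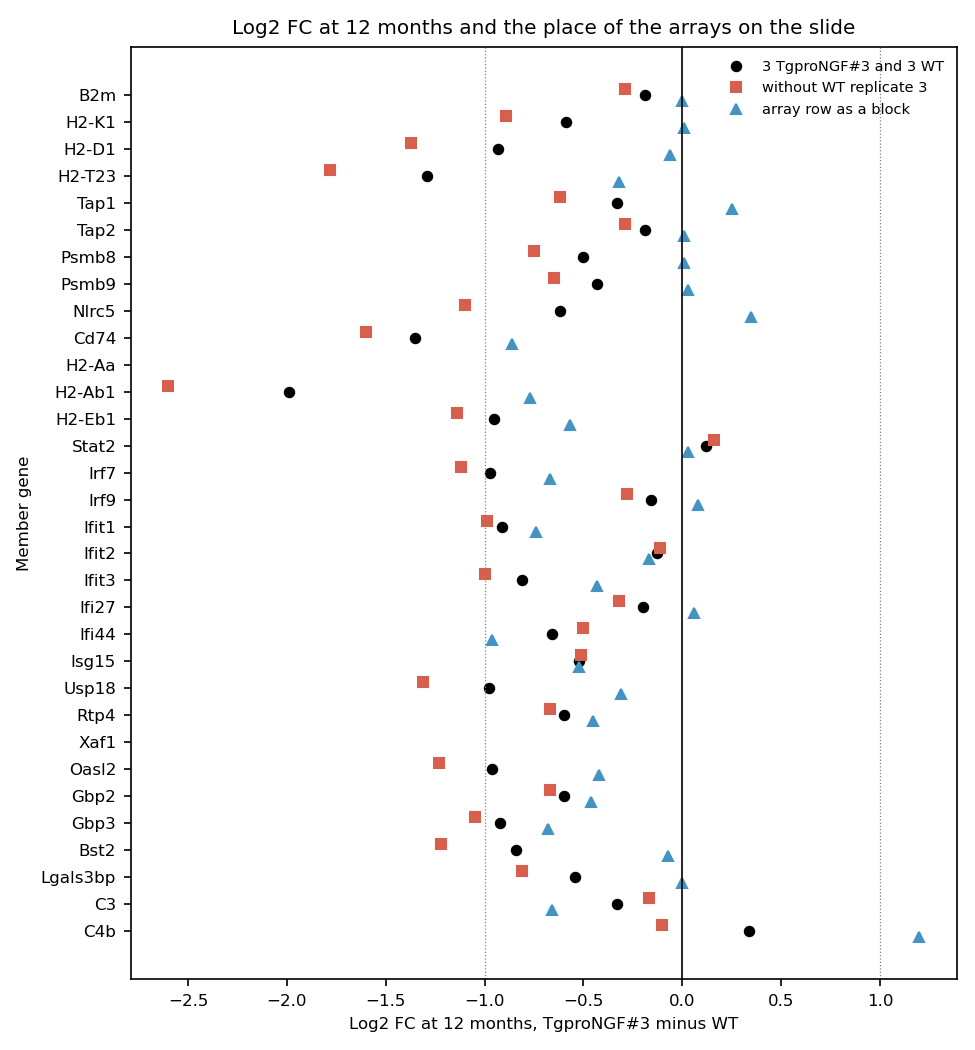
Log2 FC of the members at 12 months on the horizontal axis (TgproNGF#3 minus WT, log2), from all 6 mice (circles), without WT replicate 3 (squares) and with the array row as a block (triangles). Squares lie mostly to the left of the circles and triangles mostly to the right; H2-Ab1 moves from -1.99 to -2.60 and -0.77.

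MHC class II molecules are pairs of an alpha and a beta chain that are assembled on the invariant chain Cd74 before they take up peptide. Cd74 (probe A_51_P284608) had levels of -2.54, -0.63, -2.12 and -1.69 in the TgproNGF#3 mice of 1 month and of -2.12, -0.86, -2.10 and -2.02 in WT. At 3 months the levels were -0.79, -1.18, -1.19 and -2.37 in TgproNGF#3 and -2.90, -2.41, -3.09 and -3.10 in WT. All TgproNGF#3 mice of 3 months lay above all WT mice, the lowest of them by a margin of less than the spread within either group. The Log2 FC was 1.49 ± 0.322 (SE), a 2.81-fold higher mean, with an adjusted p of 0.0239 in limma. Levels of 12 months were -4.29, -4.39 and -2.62 in TgproNGF#3 and -2.55, -1.79 and -2.91 in WT. Replicates 1 and 2 of TgproNGF#3 lay far below WT and replicate 3 lay within the WT range. The Log2 FC of that age was -1.35 ± 0.499 (SE; 95% confidence interval -2.52 to -0.19), and it was -1.92 without TgproNGF#3 replicate 3. The unadjusted p was no longer below 0.05 without TgproNGF#3 replicate 1 (-1.09) or 2 (-1.04), without WT replicate 2 (-1.04), after quantile normalization (-1.27) or with the array row as a block (-0.86).

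H2-Ab1, the beta chain of the I-A molecule, moved the same way as Cd74 at both ages. Its levels (probe A_55_P1962747) at 3 months were -0.01, -1.30, -1.34 and -1.77 in TgproNGF#3 and -2.47, -1.83, -1.94 and -2.45 in WT. The groups did not overlap, and TgproNGF#3 replicate 1 was the highest. Its Log2 FC was 1.07 ± 0.349 (SE; adjusted p = 0.0888 in limma), and 0.70 without replicate 1. In the mice of 12 months H2-Ab1 was at -3.60, -3.61 and -2.46 in TgproNGF#3 and at -0.43, -0.82 and -2.46 in WT, where TgproNGF#3 replicate 3 and WT replicate 3 gave the same rounded level. The Log2 FC of -1.99 ± 0.547 (SE; 95% confidence interval -3.27 to -0.71) was the largest in size of any member at that age in the fit without a block, a 3.97-fold lower mean. With the array row as a block it was -0.77. At 1 month H2-Ab1 ranged from -1.27 to 0.07 in TgproNGF#3 and from -1.30 to -0.44 in WT. A second probe of the gene gave a Log2 FC of 0.35, 1.19 and -2.28 at 1, 3 and 12 months.

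H2-Eb1, the beta chain of the I-E molecule, had a Log2 FC of 0.70 at 3 months (95% confidence interval -0.02 to 1.43) and -0.95 at 12 months (-1.82 to -0.09). H2-Aa, the partner of H2-Ab1, was close to background, with levels between -7.82 and -4.29 where it was detected. It was well above background in 1 of 3 TgproNGF#3 and 2 of 3 WT mice of 12 months and was not tested there. Its Log2 FC at 3 months was -0.58 (95% confidence interval -1.22 to 0.06), opposite in sign to that of its partner. H2-Ea, the alpha chain of I-E, was not analysed here. Ciita, the activator of class II genes, is no member and had a Log2 FC of 0.57 at 3 months (adjusted p = 0.168 in limma) and 0.01 at 12 months, and it was chosen after its values were seen.

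MHC class I joins a heavy chain to the light chain B2m, and the peptides come from the proteasome subunits Psmb8 and Psmb9 through the transporter of Tap1 and Tap2. H2-T23 encodes Qa-1, a non-classical heavy chain seen by natural killer cells, and it was the class I member that turned most between the ages. Its levels (probe A_51_P237754) were 1.29, 0.64, 0.69 and 0.55 in TgproNGF#3 and -0.03, 0.37, 0.41 and 0.13 in WT at 3 months. The groups did not overlap, and the Log2 FC was 0.57 ± 0.194 (SE; adjusted p = 0.0987 in limma). Levels of 12 months were -0.74, -1.30 and -0.75 in TgproNGF#3 and 0.96, 0.73 and -0.61 in WT. WT replicate 3 lay next to the TgproNGF#3 mice, and the other 2 WT mice lay more than 1 log2 unit above it. This gave a Log2 FC of -1.29 ± 0.401 (SE; 95% confidence interval -2.23 to -0.36), a 2.45-fold lower mean, and it was -0.32 with the array row as a block. At 1 month the levels were 0.96, 1.55, 0.79 and 1.48 in TgproNGF#3 and 0.49, 1.79, 0.51 and 1.19 in WT, so that replicates 2 and 4 were the high ones in both genotypes.

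H2-K1, a classical heavy chain, was lower at 3 months, while 6 of the 9 class I members had a Log2 FC above 0. Its levels (probe A_51_P198434) were 0.59, 0.52, 0.58 and 0.21 in TgproNGF#3 and 1.01, 0.91, 0.89 and 1.01 in WT. The groups did not overlap, and the Log2 FC was -0.48 ± 0.135 (SE; adjusted p = 0.0596 in limma). A second probe of H2-K1 gave a Log2 FC of -0.13 at 3 months (95% confidence interval -0.53 to 0.26) and -0.95 at 12 months (-1.78 to -0.11), where the first gave -0.59 (-1.34 to 0.16). The 12-month levels of the first were -0.06, 0.18 and 0.76 in TgproNGF#3 and 0.95, 1.41 and 0.29 in WT, and those of 1 month were 0.93, 1.18, 0.61 and 1.11 in TgproNGF#3 and 1.21, 1.64, 0.60 and 1.18 in WT. Heavy chain genes are near-identical in places and differ between strains, and how far these probes tell them apart was not tested.

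Of the other 7 class I members, Psmb9 and Psmb8 had a Log2 FC of 0.51 and 0.36 at 3 months, both with an unadjusted p below 0.05 (adjusted p = 0.106 and 0.178 in limma). B2m had 0.40 (95% confidence interval -0.04 to 0.83), and Tap1, Tap2, H2-D1 and Nlrc5, the activator of class I genes, lay between -0.48 and 0.21 with no p below 0.05. All 9 members of the role were below 0 at 12 months, from -1.29 to -0.19 with a median of -0.50. H2-T23 and H2-D1, the other classical heavy chain (-0.93, 95% confidence interval -1.79 to -0.07), were the 2 with an unadjusted p below 0.05. Over all genes 4.21% had such a p in the lower direction. With the array row as a block H2-T23 was at -0.32. B2m, the light chain shared by every class I molecule, was at -0.19 (-0.59 to 0.21).

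**Figure D3:**
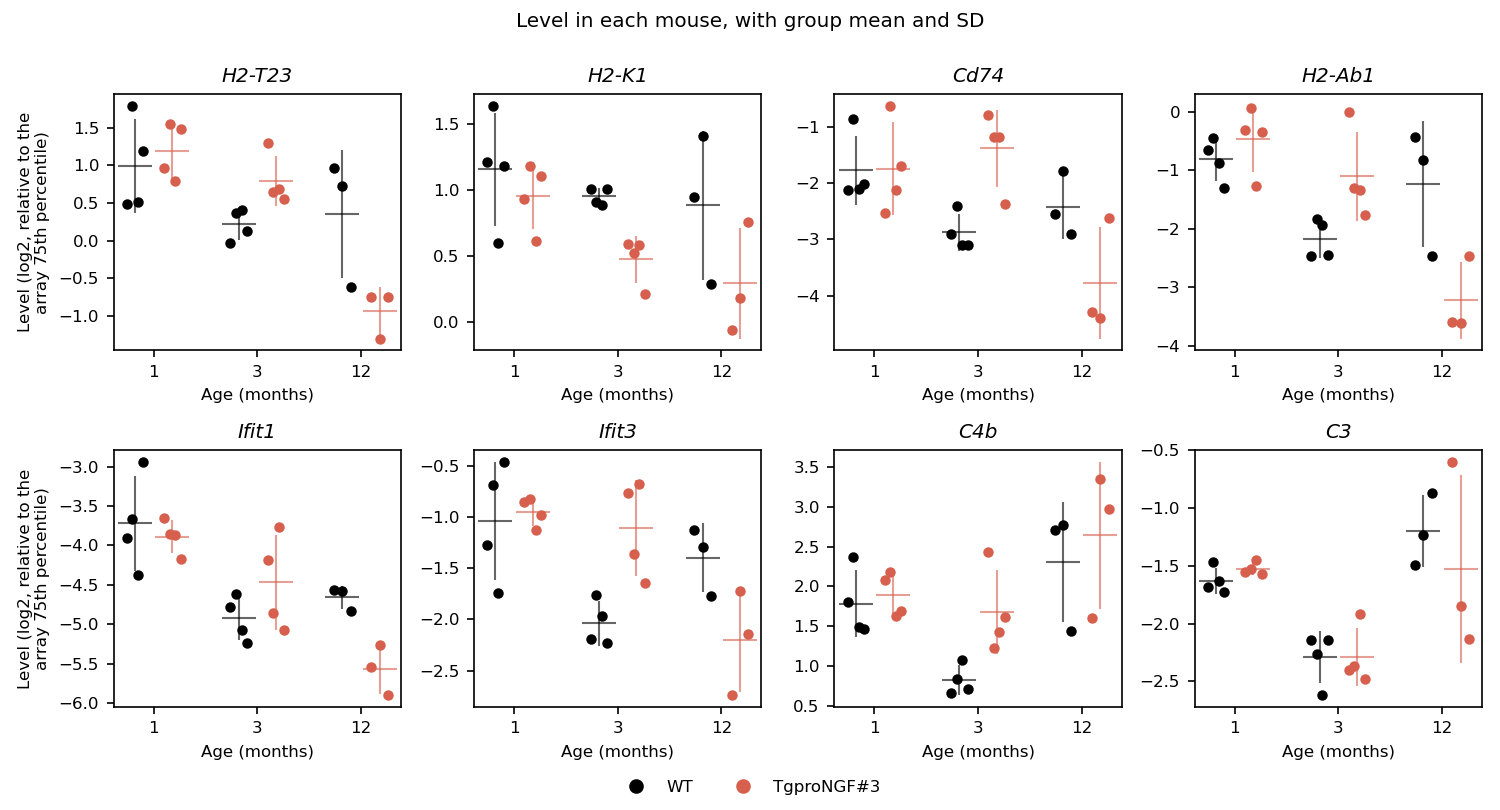
Level of 8 members in each mouse (log2 relative to the 75th percentile of the array) against age in months, WT in black and TgproNGF#3 in red, with the group mean and SD. Cd74, H2-Ab1 and H2-T23 lie above WT in TgproNGF#3 at 3 months and below it or at its lower end at 12 months, apart from TgproNGF#3 replicate 3 for Cd74. C4b and C3 are higher in WT at 12 than at 3 months.

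Stat2 and Irf9 belong to the factor that binds the ISRE, and Irf7 drives the transcription of the interferon genes themselves. Stat2 passed no threshold at any age. Its levels (probe A_55_P2059606) were 0.22, 0.06, -0.01 and 0.26 in TgproNGF#3 and 0.02, -0.07, -0.02 and 0.01 in WT at 3 months, with a Log2 FC of 0.15 (95% confidence interval -0.13 to 0.43). At 12 months they were -0.28, -0.35 and -0.08 in TgproNGF#3 and -0.44, -0.35 and -0.26 in WT, with a Log2 FC of 0.12 (-0.21 to 0.44). At 1 month they were 0.74, 0.65, 0.55 and 0.38 in TgproNGF#3 and 1.01, 0.11, 0.49 and 0.33 in WT. Irf9 lay between -0.20 and -0.13 at the 3 ages with no p below 0.05.

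Irf7 lay near the background, and it was lower in TgproNGF#3 at both later ages. Its levels (probe A_51_P421876) at 3 months were -5.76, -6.55, -6.55 and -6.29 in TgproNGF#3 and -5.38, -5.93 and -5.61 in the 3 WT mice where the spot was well above background, so that WT replicate 1 is not in the fit. Its Log2 FC was -0.64 ± 0.236 (SE; adjusted p = 0.125 in limma), and it was -0.08 when dim spots were kept. The unadjusted p was above 0.05 in 11 of 19 alternatives. Levels of 12 months were -6.05 and -6.77 in TgproNGF#3 replicates 1 and 3, the ones detected, and -5.21, -5.37 and -5.73 in WT. The groups did not overlap, and the Log2 FC was -0.97 ± 0.270 (SE; 95% confidence interval -1.62 to -0.32). Over the alternatives this Log2 FC lay between -1.22 and -0.53, and its unadjusted p in limma was no longer below 0.05 in 2 of 15. At 1 month replicates 1 and 3 of WT were at -5.83 and -5.96 and replicates 2 and 4 at -3.90 and -3.69, while TgproNGF#3 was at -4.94, -4.72, -4.37 and -5.05.

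The interferon-stimulated effectors were the largest role, with 14 members. The IFIT proteins bind foreign or unmodified RNA and block its translation. Ifit2 (probe A_51_P161021) was at -3.41, -3.35, -3.21 and -3.70 in TgproNGF#3 and at -4.15, -3.99, -4.03 and -4.34 in WT at 3 months. No value overlapped and the spread within each group was small, and the Log2 FC was 0.71 ± 0.153 (SE; adjusted p = 0.0238 in limma). At 12 months Ifit2 was at -4.06, -4.45 and -3.91 in TgproNGF#3 and -4.24, -3.81 and -3.97 in WT, with a Log2 FC of -0.13 (95% confidence interval -0.58 to 0.32). At 1 month it was at -3.12, -2.85, -2.98 and -3.59 in TgproNGF#3 and -3.32, -3.21, -3.56 and -3.25 in WT.

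Ifit3 moved in opposite directions at the 2 later ages. At 3 months its levels (probe A_51_P359570) were -0.76, -1.36, -0.67 and -1.64 in TgproNGF#3 and -2.19, -1.76, -1.97 and -2.23 in WT. The groups did not overlap, and the Log2 FC was 0.93 ± 0.235 (SE; adjusted p = 0.0419 in limma), a 1.91-fold higher mean. Levels of 12 months were -2.74, -1.72 and -2.14 in TgproNGF#3 and -1.12, -1.29 and -1.77 in WT, and TgproNGF#3 replicate 2 lay within the WT range. Here the Log2 FC was -0.81 ± 0.286 (SE; 95% confidence interval -1.47 to -0.14). Its unadjusted p was no longer below 0.05 in 5 of 19 alternatives, which were dim spots kept, the array row as a block (-0.43) and leaving out TgproNGF#3 replicate 1 (-0.54), WT replicate 1 (-0.67) or WT replicate 2 (-0.75). At 1 month the levels were -0.85, -0.82, -1.12 and -0.98 in TgproNGF#3 and -1.27, -0.68, -1.74 and -0.46 in WT, with a wider spread in WT.

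Ifit1 was the member with the smallest p at 12 months. Its levels (probe A_51_P327751) were -5.54, -5.26 and -5.90 in TgproNGF#3 and -4.57, -4.58 and -4.83 in WT. All 3 WT mice, replicate 3 included, lay above all TgproNGF#3 mice. This gave a Log2 FC of -0.91 ± 0.191 (SE; 95% confidence interval -1.36 to -0.46), a 1.88-fold lower mean, and its unadjusted p stayed below 0.05 under every alternative run. At 3 months Ifit1 was at -4.18, -4.86, -3.77 and -5.07 in TgproNGF#3 and -4.78, -4.62, -5.07 and -5.24 in WT, with a Log2 FC of 0.46 (95% confidence interval -0.19 to 1.10). At 1 month it was at -3.65, -3.86, -3.87 and -4.17 in TgproNGF#3 and -3.90, -3.66, -4.38 and -2.94 in WT.

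Besides the IFIT genes, 11 effectors were measured. At 3 months Gbp2, a GTPase that attacks the vacuoles of pathogens, was the only one of them with a p below 0.05 by its brightest probe (Log2 FC 0.46, adjusted p = 0.143 in limma), and the 14 effectors ranged from -0.53 for Ifi44 to 1.25 for Xaf1, whose SE was 1.19. At 12 months all 13 tested effectors lay below 0, with a median of -0.66, and 9 had an unadjusted p below 0.05, beside 4.21% of all genes in the lower direction. With the array row as a block only Ifit1 and Ifi44 kept it. The 9 were Ifit1, Ifit3, the GTPases Gbp2 and Gbp3, Rtp4, Oasl2, Usp18, Isg15 and Ifi44. Usp18, which removes the ubiquitin-like protein Isg15 from its targets and dampens the interferon receptor, had -0.98, Oasl2 -0.96 and Gbp3 -0.92, while Isg15 itself had -0.52. A second Isg15 probe gave a Log2 FC of 0.58 at 3 months, where the first gave 0.06, and -0.64 at 12 months. The antiviral tether Bst2 (-0.84), Lgals3bp (-0.54), Ifi27 (-0.20) and Ifit2 did not pass. In 8 of the 13 effectors the groups did not overlap, beside 5.74% of all genes.

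Xaf1 could not be read with confidence. Its brightest probe ranged from -6.57 to -0.78 among the mice where it was detected, and at 12 months it was well above background in 1 WT mouse and in no TgproNGF#3 mouse. A second Xaf1 probe, detected in all 22 mice, gave a Log2 FC of -0.15, 0.05 and -0.23 at 1, 3 and 12 months.

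The ISRE letters were found both in members that passed and in members that did not. Of the 9 members with the core letters in their promoter window, 6 had a p below 0.05 at 12 months, with a median Log2 FC of -0.81. Of the 13 tested members whose window lacked it, 5 did, with a median of -0.54, and of the 8 members without a window 4 did, with a median of -0.61. All of these stood beside 4.21% of all genes. Stat2, B2m and Bst2 carry the letters and did not pass at either later age. Oasl2, Irf7 and Ifi44 lack them in this window and were among the lower members at 12 months. A match is a run of letters and not a measured binding site.

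Complement factor C3 is the point where all complement pathways meet, and C4b belongs to the classical pathway upstream of it. C4b was higher in TgproNGF#3 than in WT at 3 months. Its levels (probe A_55_P2078633) were 2.43, 1.23, 1.43 and 1.62 in TgproNGF#3 and 0.66, 0.84, 1.08 and 0.71 in WT, and the groups did not overlap. Its Log2 FC was 0.86 ± 0.249 (SE; adjusted p = 0.0638 in limma), a 1.81-fold higher mean, and 0.61 without replicate 1. At 12 months C4b was at 1.60, 3.35 and 2.98 in TgproNGF#3 and 2.71, 2.77 and 1.44 in WT. Both groups held 1 low mouse, and the Log2 FC was 0.34 (95% confidence interval -0.87 to 1.54), which became -0.10 without WT replicate 3 and 1.20 with the array row as a block. At 1 month the levels were 2.08, 2.18, 1.63 and 1.69 in TgproNGF#3 and 1.81, 2.37, 1.49 and 1.46 in WT. C4a, a near-identical copy, was not analysed here, and whether the C4b probe also reads it was not tested.

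C3 passed no threshold between the genotypes by its brighter probe (A_55_P2038525). The levels at 3 months were -2.40, -2.37, -1.92 and -2.48 in TgproNGF#3 and -2.14, -2.26, -2.62 and -2.14 in WT, and the 95% confidence interval of the Log2 FC was -0.40 to 0.39. A second C3 probe gave a Log2 FC of 0.37 at 3 months (adjusted p = 0.147 in limma) with groups that did not overlap. Levels of 12 months were -0.60, -1.85 and -2.13 in TgproNGF#3 and -1.49, -1.23 and -0.87 in WT, and the interval was -1.24 to 0.58. At 1 month they were -1.55, -1.53, -1.45 and -1.57 in TgproNGF#3 and -1.68, -1.47, -1.63 and -1.73 in WT.

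**Figure D4:**
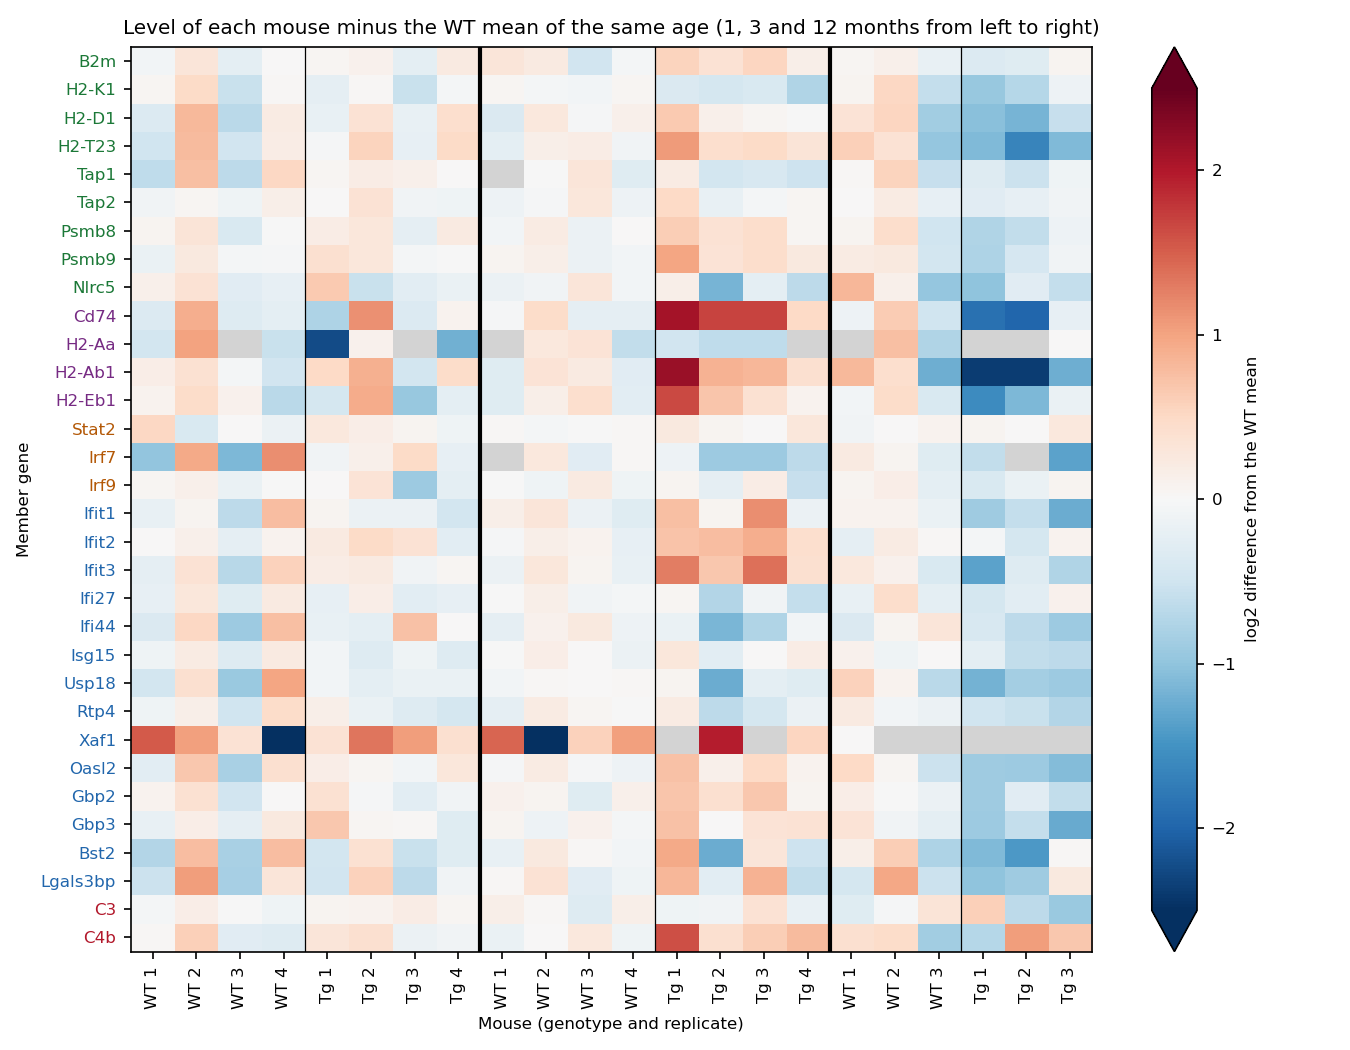
Each column is a mouse and each row a member; colour gives the log2 difference from the WT mean of the same age, red above and blue below, and grey a spot left out. Columns of 3-month TgproNGF#3 replicate 1 are mostly red, those of the 3 TgproNGF#3 mice of 12 months mostly blue, and WT replicate 3 of 12 months is blue like them in most rows.

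Whether the Log2 FC differed between 3 and 12 months was tested as a difference of the 2 values, which need not be a change of direction. Of 30 members, 29 had a lower Log2 FC at 12 months, and for 7 the difference had an adjusted p below 0.05, all in the lower direction, beside 0.956% of all 15383 genes in that direction and 2.44% in the higher one. H2-Ab1 differed by -3.06 (adjusted p = 0.0233 in limma), Cd74 by -2.84 (0.0210), H2-T23 by -1.86 (0.0322) and Ifit3 by -1.74 (0.0242). The effectors Oasl2, Gbp3 and Gbp2 differed by -1.32, -1.29 and -1.06, and Gbp2 no longer passed with arrays aligned to their median or after quantile normalization. The median difference was -0.65, beside 0.12 over all genes. H2-K1 and Irf7 differed by -0.11 and -0.33, and Stat2 by -0.03. Males of 3 months and females of 12 months are compared here, so that age, slide and sex cannot be told apart. The 12-month Log2 FC moved with the array row, and this difference was not tested with the row as a block or without single mice. Between 1 and 3 months no member had an adjusted p below 0.05 for the difference, beside 0.0382% of all 15723 genes in the higher and 1.21% in the lower direction. With the unadjusted p of limma there were 3, Cd74 (1.46, adjusted p = 0.252), Ifit3 (0.84, adjusted p = 0.336) and C4b (0.75, adjusted p = 0.383), all higher at 3 months, beside 1.75% of all genes in that direction.

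In WT mice most members were lower at 3 months than at 1 month, and so was most of the array. Of 31 members tested, 20 had an adjusted p below 0.05 in limma and all were lower, beside 43.3% of all 15619 genes that were lower and 1.16% that were higher. The median difference was -0.77 for the members and -0.44 over all genes. With the percentile taken over all spots the median over all genes was 0.02, that of the members was -0.32, and 2 members passed, beside 11.7% of all genes in either direction. Both complement genes were higher in WT at 12 than at 3 months, C4b by 1.49 ± 0.307 (SE; adjusted p = 0.0109 in limma) and C3 by 1.09 ± 0.182 (adjusted p = 0.00429), beside 5.26% of all genes in that direction. Females are set here against males of another slide, so that age, slide and sex cannot be told apart. The immunoproteasome subunit Psmb9 was higher by 0.70 (adjusted p = 0.0348) but did not pass with the percentile over all spots, with arrays aligned to their median or after quantile normalization, and no member was lower, beside 1.82% of all genes. C4b went from 0.82 ± 0.189 (SD, n = 4) to 2.31 ± 0.751 (SD, n = 3), with the lowest WT mouse of 12 months above the highest of 3 months. C3 went from -2.29 ± 0.226 to -1.20 ± 0.310, again without overlap. Compared with the 1-month WT mean, which was 1.78 for C4b and -1.63 for C3, the order of the ages was 3, 1 and 12 months for both genes, and the ranges at 1 and 12 months overlapped for both. H2-Ab1 had its highest WT mean at 1 month (-0.82), then 12 months (-1.24) and 3 months (-2.17), and the wide 12-month range, from -2.46 to -0.43, overlapped with both of the others.

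Genes of the same pathways outside the set were counted from 4 lists. Among the other interferon-stimulated genes, 12 of 39 tested had an unadjusted p below 0.05 at 12 months, all lower, with a median Log2 FC of -0.40, beside 4.21% of all genes in that direction. At 3 months the same list gave 4 higher and 7 lower, with a median of -0.09, counts near the 9.59% and 15.3% of all genes, and its down-regulated gene was Gbp6, another GTPase (-1.02, adjusted p = 0.106 in limma). Of the interferons, their receptors and the sensors of nucleic acid, 24 were tested and 1 was higher and 1 lower at 12 months. At 3 months 3 of the 24 were lower and none was higher, beside the same shares of all genes. The other MHC and antigen processing genes gave 3 higher and 2 lower of 19 at 3 months and 1 lower of 18 at 12 months. The other complement genes gave 2 higher of 18 at 3 months and 1 lower of 18 at 12 months. At 1 month none of these genes had a p below 0.05. By the adjusted p of limma, Ifngr1 (-0.75, adjusted p = 0.024), Tyk2 (-0.68, 0.0386) and Canx (-0.68, 0.0405) were lower at 3 months. Eif2ak2 was higher (0.92, adjusted p = 0.0305). Over all genes 4.49% had an adjusted p below 0.05 in the lower and 2.05% in the higher direction.

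Markers of cell types that the tissue could hold were read on the same arrays, as the mean log2 level of each list. Counts here are of an unadjusted p below 0.05, for which the share of all genes was 2.11% higher and 0.744% lower in the mice of 1 month. The shares were 9.59% and 15.3% for 3 months, while for 12 months they were 3.89% and 4.21%. The 6 markers of hippocampal neurons were well above background in all 22 mice. At 12 months 5 of 6 tested markers of border macrophages, the macrophages of meninges and vessels, which carry class II molecules, were lower at an unadjusted p below 0.05, and 3 of them (Cbr2, Pf4 and Mrc1) were down-regulated. Their mean level lay between -4.02 and -3.71 in TgproNGF#3 and between -3.10 and -2.73 in WT, where WT replicate 3 was the lowest. Of 8 markers of leptomeninges 3 were down-regulated at 12 months, with list means from -1.85 to -0.98 in TgproNGF#3 and from -1.0 to -0.18 in WT. Microglia markers gave 1 lower of 12, and the list means were 0.59 to 0.64 in TgproNGF#3 and 0.75 to 0.96 in WT. At 3 months 3 of 8 leptomeningeal markers were higher (means from -0.77 to 0.18 in TgproNGF#3, from -0.99 to -0.44 in WT), border macrophage markers gave 0 of 6 in either direction (-3.65 to -2.54 and -3.25 to -2.85), and microglia markers gave 1 higher and 4 lower of 12 (0.26 to 0.70 and 0.48 to 0.63). Single vessel and blood markers also moved at 3 months. The endothelial list had 2 of 8 lower and 1 higher, with means from -1.0 to -0.57 in TgproNGF#3 and from -0.48 to -0.40 in WT. Cdh5 was down-regulated (Log2 FC -2.07, adjusted p = 0.0126 in limma), while the median Log2 FC of the list was -0.10. Of 3 red cell markers the globin Hbb-b1 was down-regulated (-2.17, adjusted p = 0.000654 in limma), and the list means were -0.26 to 0.06 in TgproNGF#3 and 0.53 to 0.78 in WT. The others, Hba-a1 and Alas2, had a Log2 FC of 0.01 and -0.18, so that Hbb-b1 set the difference of the means. Astrocyte markers gave 1 lower of 6 (0.97 to 1.35 and 1.32 to 1.38). At 12 months the endothelial and red cell lists gave none in either direction and the astrocyte list 1 lower. At 1 month 2 of 6 border macrophage markers, F13a1 and Cbr2, were lower at an unadjusted p below 0.05, with list means from -3.07 to -2.55 in TgproNGF#3 and from -2.55 to -2.32 in WT. Of the lymphocyte markers, Cd3d, Ms4a1 and Cd3g were well above background in 1, 3 and 4 of 22 mice. The border macrophage marker Cd163 was so in 1 and Lyve1 in 18. The part of these cells in the results was not tested.

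Choroid plexus markers varied more between mice than the other marker lists, from -2.55 to 2.15, and in no comparison did 1 of the 8 have a p below 0.05. At 12 months the list mean was -1.83, -1.75 and 1.29 in TgproNGF#3 and -1.55, 2.00 and -0.03 in WT. TgproNGF#3 replicate 3 and WT replicate 2, the 2 mice with the most choroid plexus signal, were both the highest of their group in 14 of the 29 members measured in all 6 mice, and neither was so in 12. With this list mean as a covariate, 14 of 30 members had a p below 0.05 in the lower direction, beside 3.71% of all genes, and 6 were down-regulated, beside 0.726%, while Cd74 had a Log2 FC of -1.0 (adjusted p = 0.447 in limma). At 3 months 13 members were then higher and 1 lower, beside 9.38% and 12.3% of all genes.

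**Figure D5:**
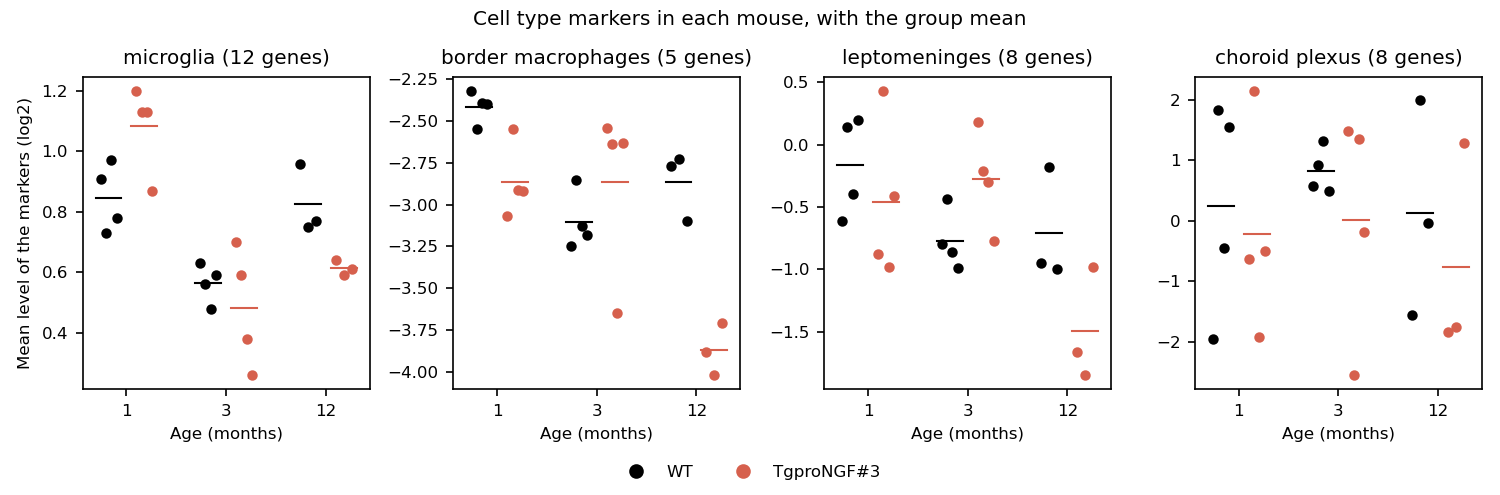
Mean level of 4 marker lists in each mouse (log2 relative to the 75th percentile of the array) against age in months, WT in black and TgproNGF#3 in red, with a line at the group mean. Border macrophage markers lie between -4.02 and -3.71 in the TgproNGF#3 mice of 12 months, below all WT mice of that age, and choroid plexus markers spread from -2.55 to 2.15.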

How the data were processed

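Hippocampal RNA of the right hemisphere was labelled with Cy3 and hybridized to Agilent arrays, and the authors deposited for each spot the intensity that Feature Extraction 10.7.3.1 gives after subtraction of background and spatial trends, not scaled between arrays. The deposited log2 values of 28929 probes were aligned to the 75th percentile and differ from the log2 intensities used here by a constant per array (largest SD 0.007). No column was left without a sample. The design of the array is on mouse build NCBI37. The slides carry 2 versions of its annotation, and genes were named through RefSeq transcripts.

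Here, 3671 control spots were dropped together with outlier spots and spots that did not lie well above background, the 75th percentile of the rest was subtracted on the log2 scale, and spots of a probe were averaged. At each age, limma 3.58.1 (R 4.3.3) fitted TgproNGF#3 against WT for every probe that kept 2 or more values per group, with a two-sided moderated test. Benjamini-Hochberg values cover all probes tested, 40536, 33593 and 34064 at 1, 3 and 12 months. Counts use the brightest probe of each gene. Fold changes are on the log2 scale with no pseudocount. The p-values measure the spread between single mice.

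In simulated data with 200 probes changed by a log2 value of 2 and the same SD for all probes, the procedure recovered 100% at each age. The Log2 FC of members by their brightest probe were smaller than 2 in size, and recovery of changes of their size was not tested. Same-numbered mice of 1 month deviated together from their group means (correlations of 0.511, 0.272, 0.191 and 0.208 over 36103 probes), shared an array row, and were taken as pairs for the blocked value. The genes given mouse by mouse in the report are members that were up- or down-regulated or had an adjusted p below 0.05 at an age, and the 2 of each role with the smallest p. H2-D1 and Lgals3bp, given at 1 month under the other observations, were chosen outside this rule. The members and lists were chosen with earlier results of these data known, and 1 gene of the pathway lists is not reported here. As alternatives the background filter, outlier filter, scaling, probe rule, groups in the fit, blocks and single mice were varied, the authors' log2 values were used, and the choroid plexus covariate was added after the data were seen.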

Additional observations from a re-analysis of the deposited data

Results flagged for a closer look

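In 1 of the 43 groups of 4 mice examined over the genes given mouse by mouse in the report, H2-D1 and Lgals3bp apart, a single mouse lay far from the others by Dixon's test. Cd74 was at -0.86 in WT replicate 2 of 1 month, while the other 3 WT mice lay between -2.12 and -2.02. Chance alone marks about 1 group in 20 in this way.

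The Log2 FC at 12 months differed from that at 3 months in 7 members by the limma test of the difference, after adjustment over all probes. The difference was -3.06 for H2-Ab1, -2.84 for Cd74, -1.86 for H2-T23, -1.74 for Ifit3, -1.32 for Oasl2, -1.29 for Gbp3 and -1.06 for Gbp2. Age, slide and sex cannot be told apart in this comparison, and the 12-month values moved with the array row.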

How the results depend on the processing

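At 1 month the count of members up- or down-regulated was 0, and 1 (H2-Aa, lower) with the replicate block. Leaving out single mice gave 0 to 1, and the median Log2 FC ran from -0.14 to 0.16. At 3 months the count was 2, with 1 under the normexp correction and 4 with the choroid plexus covariate, and 1 to 4 without single mice. It fell to 1 without TgproNGF#3 replicate 1, WT replicate 1 or WT replicate 4, and rose to 4 without TgproNGF#3 replicate 2. The median ran from 0.09 to 0.28. At 12 months the count of 3 became 5 when spots not well above background were kept, 5 with the percentile over all spots, 8 with the authors' log2 values, 6 with the choroid plexus covariate and 0 with the array row as a block, whose median was -0.24. Without single mice it ran from 2 to 11, the highest without WT replicate 3, and was 6 and 7 without TgproNGF#3 replicates 2 and 3, with medians from -0.78 to -0.54. The down-regulated share of all genes was 0.854% at first. It was 1.58% with dim spots kept, 0.886% with the percentile over all spots, 0.964% with the authors' values and 0.726% with the covariate. Without WT replicate 3 it was 1.85%, and without TgproNGF#3 replicates 2 and 3 it was 0.621% and 0.865%. The median over all genes at 12 months was 0.06, and 0.21 with arrays aligned to their median, where that of the members was -0.45. The number of members whose Log2 FC differed between 3 and 12 months was 7, with 12 for the percentile over all spots and 6, without Gbp2, for arrays aligned to their median and for quantile normalization. Over all genes the shares were 3.4%, 4.67%, 3.2% and 2.87%. The number that differed in WT between 1 and 3 months was 20, beside 44.5% of all genes, and 2 with the percentile over all spots, beside 11.7%. It was 26 with arrays aligned to their median and 23 after quantile normalization, beside 60.2% and 52.6%. The cause of these changes was not tested.

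The replicate numbers did not pair the mice of 3 and 12 months, where the correlations of same-numbered mice were -0.356, -0.085, -0.311 and -0.023, and -0.039, -0.316 and 0.05. The replicate block left 2 members called at 3 months and 3 at 12 months. Of 276 recalculations of 14 single-gene results with an unadjusted p below 0.05, 249 kept it, 27 lost it and 0 changed direction. Of the 27, 11 were of Irf7 at 3 months. Probes near the background, such as those of H2-Aa, Irf7 and Xaf1, limit what can be read.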

Other observations

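At 1 month WT replicate 2 was the highest WT mouse in 20 of the 31 members measured in all 8 mice, and WT replicate 3 the lowest in 22. In TgproNGF#3 the levels of H2-D1 were 0.57, 1.11, 0.57 and 1.18, and in WT they were 0.41, 1.57, 0.08 and 0.96, so that replicates 2 and 4 were high in each genotype. Lgals3bp was also higher in replicates 2 and 4 than in 1 and 3, with 0.39, 1.44, 0.22 and 0.77 in TgproNGF#3 and 0.34, 1.92, 0.04 and 1.17 in WT. The choroid plexus list mean of these mice was -0.63, 2.15, -1.91 and -0.49 in TgproNGF#3 and -1.95, 1.83, -0.45 and 1.56 in WT. These genes were chosen after their values were seen, and the part of choroid plexus in them was not tested.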
